A study of Homo sapiens with 6 samples.

Results

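The transcripts examined here are those of 10 stimulus-response genes, EGR1, EGR2, EGR3, NR4A1, NR4A2, NR4A3, IER2, IER3, IER5 and SRF, chosen by gene name among the 61541 Ensembl genes of the count table. Both these genes and the related lists below were chosen with earlier results of these data known. All 10 were found under that name and all 10 passed the filter on low counts, which left 17678 genes for testing. They were measured by bulk RNA-seq of H9, an established T-cell lymphoma line that is a clonal derivative of the Sezary syndrome line HUT 78 and is labelled wild type (WT). Each group had 3 libraries, the first treated with the vehicle DMSO (no duration is labelled) and the second with AZD4573, a selective inhibitor of CDK9, for 4 h according to the labels and at 50 nM according to the figure legends. The discussion of the study gives 6 h. Apart from the treatment and its labelled time, the labels describe both groups alike.

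Genes of this kind are switched on within minutes of a stimulus, because the factors that start their transcription are already present in the resting cell and no new protein is needed. Serum response factor (SRF) binds the CArG box of their promoters, together with ELK factors that are phosphorylated by ERK or with actin-regulated MRTF cofactors, whereas CREB binds cAMP response elements. RNA polymerase II is often held paused just after the start of such genes, and its release requires CDK9 within the P-TEFb complex. In T cells, EGR1, EGR2, EGR3 and the orphan nuclear receptors NR4A1, NR4A2 and NR4A3 follow T-cell receptor stimulation, and EGR2, EGR3 and the NR4A receptors are known for restraining activated T cells. Their transcripts are short-lived.

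The promoters of EGR1, EGR2 and SRF are shown because each holds at least 1 CArG box, yet EGR1 rose, EGR2 fell and SRF was not called. The RefSeq promoter table (GRCh38.p14) had an entry for 7 of the 10 genes, and EGR3, NR4A2 and IER3 had none. In the 250 bases before a gene start, the CArG box was found for these 3 genes and for 1.16% of all 35116 promoters in the table. Counted by gene, 394 of 27305 had a CArG box before at least 1 of their starts. The stretches below run 5′ to 3′ on the strand of the gene. Each begins 150 bases before a RefSeq start, taken because the 250 bases before it hold a CArG box. For EGR1 and SRF this start is the 5′ end of the gene in the annotation used below. For EGR2 it is position 62816366, which lies inside the gene as annotated there (5′ end at 62819167), so that the stretch of EGR2 is upstream of an internal start. Capitals mark CArG boxes, the EGR site GCGGGGGCG (GCGTGGGCG was searched too) and TGACG, the core of the cAMP response element, each on either strand.
EGR1, chr5:138465329-138465458, plus strand: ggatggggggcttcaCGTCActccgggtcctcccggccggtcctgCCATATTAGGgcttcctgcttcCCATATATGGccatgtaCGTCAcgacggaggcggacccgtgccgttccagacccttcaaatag
EGR2, chr10:62816387-62816516, minus strand: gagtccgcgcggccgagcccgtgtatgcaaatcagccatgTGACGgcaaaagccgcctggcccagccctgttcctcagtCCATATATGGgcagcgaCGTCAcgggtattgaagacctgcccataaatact
SRF, chr6:43171119-43171268, plus strand: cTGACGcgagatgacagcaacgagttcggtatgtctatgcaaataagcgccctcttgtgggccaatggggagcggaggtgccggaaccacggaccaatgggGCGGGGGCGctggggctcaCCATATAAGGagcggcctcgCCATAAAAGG
EGR1 and EGR2 share the CArG box CCATATATGG, followed in both by a TGACG core on the opposite strand. The TGACG core occurred in 21.2% of all promoters and was also found before IER2 and NR4A3, and the EGR site occurred in 5.37% of all promoters. No CArG box, EGR site or TGACG core was found in the windows of NR4A1 or IER5, and no full TGACGTCA element or NR4A site AAAGGTCA in any of the 7 genes' windows. Among 11415 genes tested that have a promoter in the table, 26.9% were called lower and 18.4% higher upon AZD4573 treatment by the rule given below. Among the 174 of them with a CArG box, which include EGR1, EGR2 and SRF, 21.3% were called lower and 16.7% higher. Their median log2 fold change was 0.15, against -0.06 for the 11415 genes. Of 1221 genes with an EGR site, 28.3% were called lower and 17.0% higher. With a TGACG core, these shares were 28.1% and 15.8% of 3997 genes.

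Total counts ranged from 70367303 to 76571157 with DMSO and from 52101868 to 63795185 with AZD4573. The 13 mRNAs of the mitochondrial genome, which is transcribed by its own polymerase, made up 3.13% ± 0.0929 (SD, n = 3) and 4.85% ± 0.162 (SD, n = 3) of the counts. Under TMM scaling the median log2 fold change over all genes was 0.03, and when libraries were scaled to these mRNAs it was -0.71, so that every change below is relative to the bulk of transcripts in a library. Of 10 T-cell markers, CD2 was near 0 (0.105 CPM with DMSO, 0.012 with AZD4573). Of the 9 tested, 4 (44.4%) were called higher and 0 lower, with 22.7% and 23.7% among all genes. The summed level of these markers was 1234 to 1267 CPM with DMSO and 1896 to 2020 CPM with AZD4573. Of the markers of other cell types, EPCAM, CD79A, COL1A1 and CDH1 were above 1 CPM, with summed levels of 55.4 to 61.3 and 89.2 to 99.0 CPM for the 4 B-cell markers, 154 to 173 and 137 to 142 CPM for the 4 epithelial markers, and 5.01 to 7.45 and 3.62 to 4.36 CPM for the 3 fibroblast markers, with DMSO and with AZD4573 respectively. The 4 myeloid markers together stayed at or below 0.842 CPM. Of those tested, 1 of 3 B-cell and 2 of 2 myeloid markers were called higher. The 1 fibroblast marker tested was called lower, and 0 of 4 epithelial markers were called either way. The part of these markers in the results was not tested. In bulk libraries, a change in the number of cells that hold a transcript and a change in its amount per cell cannot be told apart.

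Upon AZD4573 treatment, the 10 genes did not move as a group. EGR2, EGR3, NR4A1, NR4A2 and IER3 fell, EGR1 and IER2 rose, and NR4A3, IER5 and SRF were not called. A gene was called at an adjusted p under 0.05 in edgeR's quasi-likelihood test, adjusted over all genes by the Benjamini-Hochberg method, together with a fold change of at least 1.5. Thus 5 of 10 were called lower, where 23.7% of all genes tested were, and 2 of 10 higher, where 22.7% of all genes were. The libraries of the groups did not overlap for 7 of 10, against 77.8% of all genes, so that separation by itself does not set them apart. Their median log2 fold change was -0.33, with 0.03 for all genes. Levels below are normalised CPM, the counts of a gene scaled to a common library size after TMM scaling.

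**Figure D1:**
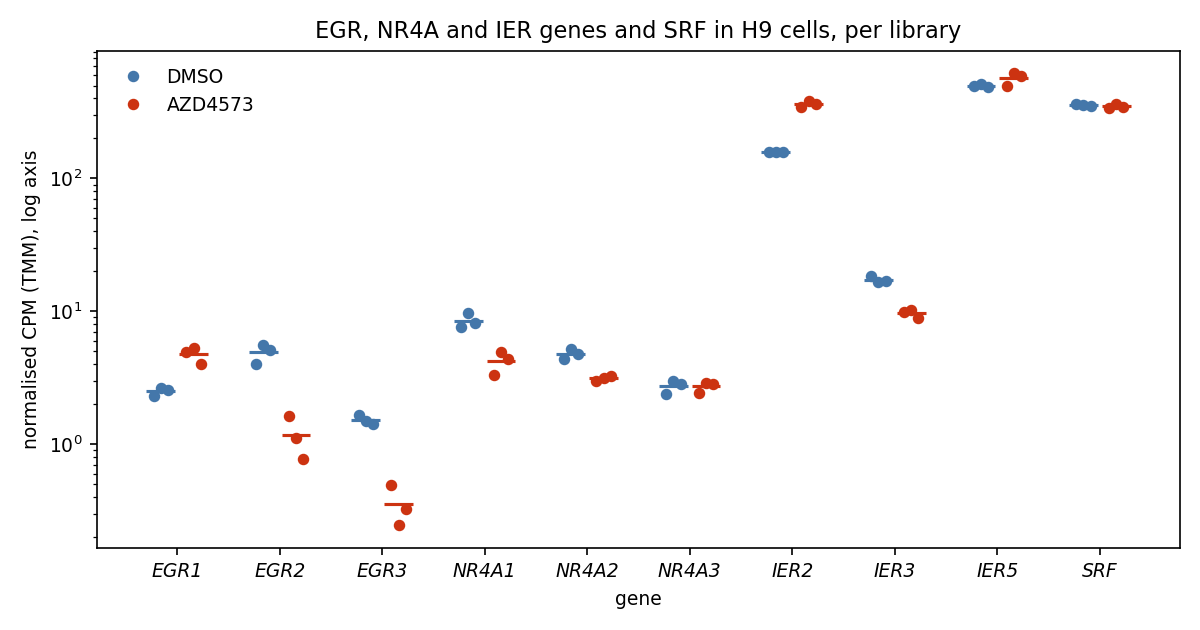
Normalised CPM (log axis) of each gene in the 3 DMSO and the 3 AZD4573 libraries, with a bar at each group's mean. EGR2, EGR3, NR4A1, NR4A2 and IER3 lie lower in all AZD4573 libraries, EGR1 and IER2 lie higher, and the groups of NR4A3, IER5 and SRF overlap.

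The EGR family encodes zinc-finger transcription factors that bind the same GC-rich site. EGR1 (ENSG00000120738, chromosome 5 of GRCh38, 138465479 to 138469303) was at 2.31, 2.66 and 2.57 CPM with DMSO and at 4.95, 5.33 and 4.01 CPM with AZD4573. Every AZD4573 library lay above every DMSO library, and the rise was 1.90-fold (log2 fold change 0.92, standard error 0.137, edgeR's adjusted p = 3.6e-05). This call depends on the scaling, since the log2 fold change was 0.19 (adjusted p = 0.24) when libraries were scaled to the mitochondrial mRNAs. In its log2 fold change under TMM scaling, EGR1 lay above 83.3% of all genes.

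EGR2 (ENSG00000122877, chromosome 10, 62811996 to 62819167), a factor of T-cell anergy and of myelination, went the other way. Its levels were 4.02, 5.54 and 5.16 CPM with DMSO, against 1.63, 1.12 and 0.770 CPM with AZD4573. All AZD4573 libraries lay below all DMSO libraries, a 4.22-fold fall (log2 fold change -2.08, standard error 0.218, edgeR's adjusted p = 1.2e-06). Of its 3707 exon bases, 145 are shared with ENSG00000289487, which had no counts in any library.

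EGR3 (ENSG00000179388, chromosome 8, 22687659 to 22693480), which acts beside EGR2 in T cells, was the least abundant of the 10 genes. Only 130, 110 and 105 counts fell on it with DMSO, and 25, 14 and 20 with AZD4573. These are 1.66, 1.502 and 1.43 CPM against 0.491, 0.246 and 0.328 CPM, so that the groups were again apart. The fall was 4.33-fold (log2 fold change -2.12, standard error 0.264, edgeR's adjusted p = 6.7e-06), the largest in size among the 10 genes and one whose 95% interval, from -2.69 to -1.54, contains the estimate of EGR2. In the order of all log2 fold changes, EGR3 and EGR2 stood at the lowest 2.42% and 2.59%. The antisense gene ENSG00000253125, which shares 164 of 5033 exon bases of EGR3, had no counts.

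The 3 tested genes whose profile over the 6 libraries was most like that of EGR3 were CCR2, SFR1 and GPR75. CCR2, a chemokine receptor, differed from it by 0.106 on the log2 scale (root mean square over 6 libraries, each gene taken relative to its DMSO mean). The differences were 0.1203 for SFR1 and 0.129 for GPR75. With 6 libraries in 2 groups, the measure rests largely on the difference between groups.

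The NR4A genes encode orphan nuclear receptors that act without a known physiological ligand. NR4A1 (ENSG00000123358, chromosome 12, 52022832 to 52059507), also called NUR77 and a marker of T-cell receptor stimulation, was at 7.62, 9.69 and 8.23 CPM with DMSO. It was at 3.30, 4.98 and 4.34 CPM with AZD4573, below every DMSO library. The fall was 2.02-fold (log2 fold change -1.01, standard error 0.1403, edgeR's adjusted p = 1.9e-05). The antisense gene NR4A1AS overlaps 754 of 7295 exon bases and had no counts.

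NR4A2 (ENSG00000153234, chromosome 2, 156324437 to 156342348), known as NURR1 for its part in dopaminergic neurons, was at 4.41, 5.20 and 4.77 CPM with DMSO and at 2.99, 3.16 and 3.26 CPM with AZD4573. The groups did not overlap, and the fall of 1.53-fold was just past the fold threshold (log2 fold change -0.61, standard error 0.117, edgeR's adjusted p = 0.00034). It lay just short of it at 1.496-fold without AZD4573 replicate 1, at 1.47-fold without DMSO replicate 2 and at 1.49-fold among genes with at least 10 counts in every library, with an adjusted p of at most 0.0024 in these fits.

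NR4A3 (ENSG00000119508, chromosome 9, 99821855 to 99866891), or NOR1, showed no such fall. Its levels were 2.37, 2.99 and 2.84 CPM with DMSO and 2.44, 2.88 and 2.85 CPM with AZD4573, and the groups overlapped over nearly their whole range. The log2 fold change was -0.0027 with a 95% interval from -0.31 to 0.31 (edgeR's adjusted p = 0.99). When the libraries were scaled to the mitochondrial mRNAs, NR4A3 was called lower, with a log2 fold change of -0.74.

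The IER genes are grouped by their rapid induction rather than by a shared protein family, although IER2 and IER5 are related. IER2 (ENSG00000160888, chromosome 19, 13150411 to 13154911), a nuclear regulator of transcription, had 159, 159 and 157 CPM with DMSO and 342, 384 and 365 CPM with AZD4573. The groups lay far apart, and the rise of 2.296-fold had the smallest adjusted p of the 10 genes (log2 fold change 1.20, standard error 0.0463, edgeR's adjusted p = 1.2e-10). Scaled to the mitochondrial mRNAs, the log2 fold change was 0.46 (adjusted p = 6.0e-07), under the fold threshold. Antisense genes overlap 1608 of the 3079 exon bases of IER2, and the counts were made without strand. The one with counts, ENSG00000267598, had 17, 9 and 5 with DMSO and 19, 42 and 66 with AZD4573, against at least 11565 for IER2. Without strand, these counts do not show how many antisense reads were assigned to IER2, and their part in its rise was not tested.

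IER3 (ENSG00000137331, chromosome 6, 30743199 to 30744548), a regulator of survival also called IEX-1, fell in the same libraries. It was at 18.3, 16.6 and 16.8 CPM with DMSO and at 9.96, 10.2 and 8.85 CPM with AZD4573, without overlap. The fall was 1.78-fold (log2 fold change -0.83, standard error 0.0788, edgeR's adjusted p = 4.3e-07). Antisense genes share 525 of its 1350 exon bases, and IER3-AS1, the more abundant of them, had 18 to 27 counts with DMSO and 29 to 37 with AZD4573, against 507 to 1435 counts of IER3. How many antisense reads were assigned to IER3 was not tested.

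IER5 (ENSG00000162783, chromosome 1, 181088700 to 181092900), which regulates the phosphatase PP2A and heat shock factor 1, was among the most abundant transcripts of the cells, above 98.6% of all genes tested in CPM with DMSO. Its levels were 498, 510 and 485 CPM with DMSO and 500, 618 and 592 CPM with AZD4573. AZD4573 replicate 1 lay within the DMSO range and the other two lay above it. The log2 fold change of 0.20 (95% interval 0.06 to 0.34, edgeR's adjusted p = 0.0145) was under the fold threshold and became -0.55 when scaled to the mitochondrial mRNAs.

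SRF (ENSG00000112658, chromosome 6, 43171269 to 43181506), the factor that binds CArG boxes, was likewise abundant. It was at 366, 359 and 353 CPM with DMSO and at 342, 361 and 342 CPM with AZD4573, so that the groups overlapped. The log2 fold change was -0.05 (95% interval -0.13 to 0.04, edgeR's adjusted p = 0.32), an interval that leaves out a change of 1.5-fold at this scaling. Scaled to the mitochondrial mRNAs, SRF was called lower, with a log2 fold change of -0.78.

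**Figure D2:**
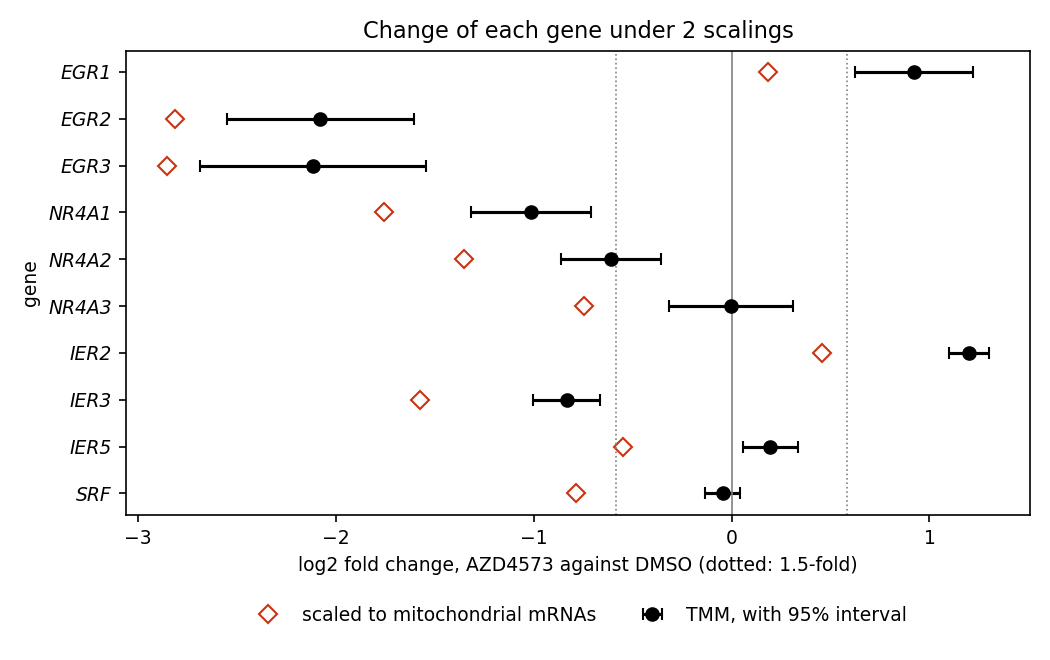
Log2 fold change of each gene, AZD4573 against DMSO, with its 95% interval under TMM scaling (filled circles) and when libraries were scaled to the mitochondrial mRNAs (open diamonds). The second scaling shifts all genes to the left and puts IER5 below 0 (-0.55), whereas EGR1 (0.19) and IER2 (0.46) stay above 0.

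Because a ratio of counts within 1 library does not depend on the scaling, relatives were also compared in this way, over 9 pairs. With 3 libraries against 3, the exact permutation test (two-sided) cannot give a p below 0.1 (0.112 after Benjamini-Hochberg adjustment over the 9 pairs for each of the 8 that reached it), so that these ratios are given for their size and separation. EGR1 had 0.575, 0.481 and 0.498 times the counts of EGR2 with DMSO. With AZD4573 it had 3.02, 4.72 and 5.17 times as many. The log2 ratio thus differed by 3.02, that is 8.12-fold, with no overlap between groups (exact p = 0.1). The ratio of EGR2 to EGR3 was 2.42, 3.68 and 3.61 with DMSO and 3.27, 4.45 and 2.32 with AZD4573, ranges that overlap (log2 difference 0.024, exact p = 1).

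The NR4A genes also moved relative to each other. The ratio of NR4A1 to NR4A3 was 3.21, 3.24 and 2.89 with DMSO and 1.353, 1.73 and 1.52 with AZD4573, a log2 difference of -1.03. That of NR4A2 to NR4A3 had a log2 difference of -0.61 and that of NR4A1 to NR4A2 one of -0.42, the groups not overlapping in either (exact p = 0.1 each). Among the IER genes, IER2 had 8.70, 9.59 and 9.33 times the counts of IER3 with DMSO. It had 34.3, 37.5 and 41.2 times as many with AZD4573, a difference of 4.08-fold. The ratios of IER2 to IER5 and of IER3 to IER5 differed by 1.01 and -1.02 on the log2 scale. Altogether, the ranges of the groups were apart in 8 of 9 pairs, EGR2 with EGR3 being the exception. The pairs share genes within each family, and the groups were apart for 77.8% of all single genes tested. How often pairs of other genes are apart was not computed, so this count is a description only.

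**Figure D3:**
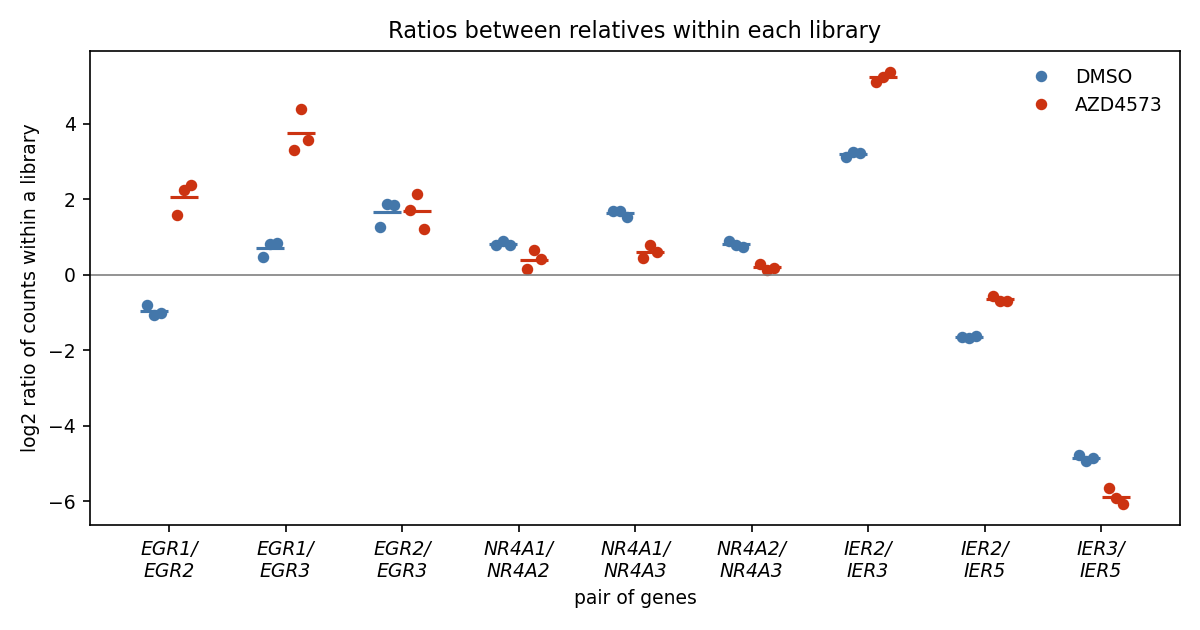
Log2 ratio of counts between 2 relatives within each library, for 9 pairs, with a bar at the mean of each group of 3 libraries. Blue DMSO points and red AZD4573 points are apart in every pair except EGR2 with EGR3, and the largest shifts are those of EGR1 over EGR3 (3.05) and EGR1 over EGR2 (3.02).

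Per kilobase of exon, the levels of the 10 genes differed widely. With DMSO the order of normalised CPM per kilobase was IER5 (118 ± 3.03, SD, n = 3), SRF (84.9 ± 1.52), IER2 (51.5 ± 0.405) and IER3 (12.8 ± 0.684), followed by EGR2 (1.32 ± 0.214), NR4A1 (1.17 ± 0.146), NR4A2 (1.17 ± 0.0965), EGR1 (0.801 ± 0.0586), NR4A3 (0.433 ± 0.0511) and EGR3 (0.304 ± 0.0234). EGR2, NR4A1 and NR4A2 overlapped with their neighbours, and every other pair of neighbours was apart. With AZD4573, IER2 reached 118 ± 6.87 (SD, n = 3) and overlapped with IER5 at 136 ± 14.8. EGR1 moved from place 8 to place 5, and EGR2, at 0.317 ± 0.117, from place 5 to place 9, where it overlapped with NR4A3.

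The 10 genes are mostly short. Their median span from start to end is 6497 bases, against 23235 bases for the tested genes with an annotation. IER3 spans 1350 bases, and the genes called higher, EGR1 and IER2, span 3825 and 4501 bases. NR4A1 and NR4A3, of which NR4A1 fell and NR4A3 did not, are the longest at 36676 and 45037 bases. Short genes are thus found among those that fell and those that rose.

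Other immediate-early genes were called in both directions too. Of 46 listed, 43 were tested, 17 (39.5%) were called lower and 7 (16.3%) higher, with 23.7% and 22.7% among all genes, and their median log2 fold change was -0.39. RGS2, a regulator of G-protein signalling, had 78, 38 and 44 counts with DMSO and 3, 3 and 1 with AZD4573 (log2 fold change -4.02, edgeR's adjusted p = 9.2e-06). NFIL3, a bZIP repressor, fell from 6.38 ± 0.401 to 0.420 ± 0.106 CPM (SD, n = 3), at a log2 fold change of -3.92. GEM, a small GTPase, had 24, 41 and 26 counts with DMSO and 7, 0 and 3 with AZD4573 (log2 fold change -2.72).

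In the other direction, DUSP6, the phosphatase that inactivates ERK, rose from 276 ± 4.63 to 752 ± 80.5 CPM (SD, n = 3), or 1.44 on the log2 scale. CCN1, a matricellular protein, and FOSL1, an AP-1 subunit, also rose, but on few counts (1, 0 and 6 against 17, 18 and 17 for CCN1, and 17, 30 and 9 against 36, 45 and 44 for FOSL1). The AP-1 subunits FOS and JUN were not called, with log2 fold changes of -0.39 (edgeR's adjusted p = 0.023) and 0.07 (edgeR's adjusted p = 0.31).

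Of 8 relatives and partners of the EGR and NR4A proteins, 7 were tested. Of these, 3 (42.9%) were called lower and 0 higher at a median log2 fold change of -0.39. Among all genes, 23.7% were called lower and 22.7% higher, and 7 genes are few for a share. With no fold threshold the count of higher genes was also 0, where 6596 of all 17678 genes tested were higher. NAB2, a corepressor of EGR proteins that they also induce, fell from 15.5 ± 0.630 to 5.98 ± 0.496 CPM (SD, n = 3), at a log2 fold change of -1.38. IER5L, a relative of IER5, fell from 4.83 ± 0.291 to 0.445 ± 0.121 CPM (log2 fold change -3.44), and WT1, a zinc-finger factor with an EGR-like binding site, from 93.7 ± 1.72 to 39.8 ± 1.82 CPM (log2 fold change -1.24). NAB1, the other corepressor, had a log2 fold change of -0.20, and EGR4 had 49, 36 and 57 counts with DMSO and 25, 35 and 21 with AZD4573 (log2 fold change -0.39, edgeR's adjusted p = 0.28).

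While SRF itself was not called, 3 of the 5 tested cofactors of SRF (60%) were called lower and 0 higher (median log2 fold change -0.64). Among all genes, 23.7% were called lower and 22.7% higher, and 5 genes are few for a share. MRTFA, an actin-regulated coactivator, fell from 50.4 ± 2.39 to 14.2 ± 1.34 CPM (SD, n = 3), at a log2 fold change of -1.82, and MRTFB from 27.1 ± 1.28 to 13.3 ± 2.32 CPM, a log2 fold change of -1.03. ELK3 fell by 0.64 on the log2 scale. ELK4 (-0.27) and ELK1 (0.04) were not called. Of 15 tested cytoskeletal targets of SRF, 1 (6.67%) was called lower and 3 (20%) higher, with a median of 0.16. The share called higher was thus close to that of all genes (22.7%). FHL2, a LIM-domain protein, fell (-0.99), whereas TAGLN (1.16), ACTA2 (0.66) and FLNA (0.63), which encode actin or proteins that bind it, rose. Actin genes are nearly identical in sequence, so that the division of reads between ACTA2 and its relatives is uncertain.

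Upstream of these genes, the 17 members of the RAS-ERK cascade had a median log2 fold change of -0.06. Of these, 5.88% were called lower and 5.88% higher, with 23.7% and 22.7% among all genes. RPS6KA1, an ERK-activated kinase, was called lower (-0.79), and MAPK3, which encodes ERK1, was called higher (0.60). The call of MAPK3, at 1.52-fold, was lost without AZD4573 replicate 3, without DMSO replicate 3, with DESeq2, with no filter on low counts, and with scaling by library size only or to the mitochondrial mRNAs. Without AZD4573 replicate 1, 3 of the 17 were called lower and 2 higher, and without DMSO replicate 1, 2 were called lower. Of 12 regulators of the CREB, MEF2 and NFAT pathways, 4 (33.3%) were called lower and 0 higher (median -0.24), with 2 higher where no fold was required. The share called lower was not far from the 23.7% of all genes, of which 22.7% were called higher. CREB1 fell from 51.3 ± 1.41 to 16.6 ± 2.23 CPM (SD, n = 3), at a log2 fold change of -1.63, followed by NFATC3 (-0.95), MEF2A (-0.82) and CRTC3 (-0.66).

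Of 10 T-cell anergy genes linked to EGR2 and EGR3, 8 were tested. Of these, 2 (25%) were called lower and 1 (12.5%) higher (median -0.31), with 23.7% and 22.7% among all genes. The share called lower was thus close to that of all genes. FASLG, the ligand of the death receptor FAS, had 77, 63 and 56 counts with DMSO and 0, 0 and 6 with AZD4573 (log2 fold change -4.55, edgeR's adjusted p = 1.7e-05). TNFRSF9, the costimulatory receptor 4-1BB, fell from 42.2 ± 2.88 to 25.4 ± 1.94 CPM (SD, n = 3), at a log2 fold change of -0.73. CRTAM, a receptor of activated T cells, rose from 25, 23 and 24 counts to 86, 75 and 120 (log2 fold change 2.37). CBLB, ITCH, DGKA, DGKZ and NRN1 were not called.

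**Figure D4:**
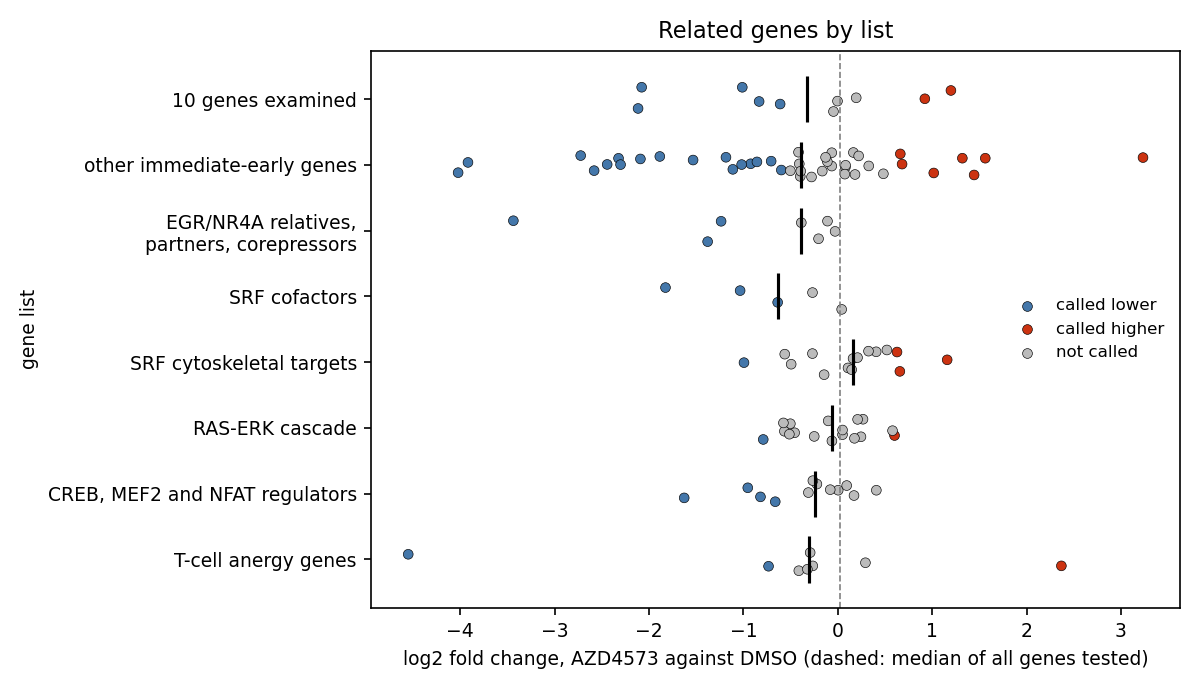
Log2 fold change (AZD4573 against DMSO) of each tested gene in the 10 genes examined and in 7 related lists, coloured by call, with a black bar at each list's median and a dashed line at the median of all genes (0.03). Genes called lower and called higher both occur among the 10 genes (5 and 2) and the other immediate-early genes (17 and 7). None is called higher, and 3, 3 and 4 are called lower, among 5 SRF cofactors, 7 EGR and NR4A relatives and 12 CREB, MEF2 and NFAT regulators. Of all genes, 23.7% were called lower and 22.7% higher.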

How the data were processed

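Per the labels and the study's methods, the authors trimmed reads with cutadapt 2.3, aligned them to GRCh38 with STAR 2.7.8a and estimated counts per gene with RSEM 1.3.3 at default parameters, which ignore strand. Reads in exon bases shared between genes were thus divided by estimate. A low or absent count of an overlapping gene does not show that the other gene is free of its reads. The labels name poly(A) selection and the methods rRNA depletion. The deposited values are expected counts in whole numbers, not normalised, 1 column per library. The 5 reporter rows, with 0 counts, were left out.

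Genes were filtered with edgeR 4.0.16 (R 4.3.3; minimum count 10), scaled by TMM and compared over all 6 libraries with the quasi-likelihood test, without a replicate block, with Benjamini-Hochberg adjustment over 17678 genes. DESeq2 1.42.0 (the authors used an earlier release) was an alternative, as were other scalings, filters, fold thresholds and leaving out each library. The procedure was tested on simulated data. Ratios used a prior count of 0.5. No pair of libraries within a group was a copy (chi-square per degree of freedom at least 5.91). The labels do not say that replicates are separate cultures, so p-values measure the spread between these libraries only. Positions and exon lengths came from GENCODE release 44 (61369 of 61541 IDs matched).

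Members and lists were chosen with earlier results of these data known. Named were the 10 genes, a set of fixed relatives (EGR4, NAB1, NAB2, ELK1, ELK4, MRTFA, MRTFB, FOS, JUN), up to 3 called genes of each list in each direction by size, and the 3 profiles nearest to the gene with the largest change. CRTC3 and the uncalled anergy genes were named after their values were seen. Standard errors were derived from the F statistic of the quasi-likelihood test. Each was the absolute log2 fold change computed without a prior count, divided by the square root of F. The 95% intervals were built from them around the log2 fold change given. Intervals cover the spread between libraries, and PCR copies cannot be told apart in counts. A further marker list is not reported here.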

Additional observations from a re-analysis of the deposited data

How the results depend on the processing

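Scaling to the 13 mitochondrial mRNAs changed most counts. It left 0 of the 10 genes called higher and 7 called lower, with 9433 lower and 1769 higher of all genes. By this scaling, 31 other immediate-early genes were lower and 2 higher, and lower were 7 EGR and NR4A relatives, 5 SRF cofactors, 7 SRF cytoskeletal targets (0 higher), 11 RAS-ERK genes (0 higher), 10 CREB, MEF2 and NFAT regulators and 6 anergy genes. IER5 turned to -0.55. With library size only, 4 other immediate-early genes were higher, 3 cytoskeletal targets lower and 1 higher, and 5 RAS-ERK genes lower and 0 higher. Both settings shift all genes alike by construction. At a fold change of at least 2, 3 of the 10 genes were lower and 1 higher, 2450 of all genes lower and 2643 higher, 0 cytoskeletal targets lower and 1 higher, 0 RAS-ERK genes either way, 1 CREB, MEF2 and NFAT regulator lower and 1 anergy gene lower. With no fold threshold, 6606 of all genes were lower and 6596 higher, 12 other immediate-early genes higher, 5 cytoskeletal targets lower and 9 higher, 7 RAS-ERK genes lower and 6 higher, 7 CREB, MEF2 and NFAT regulators lower and 2 higher, and 6 anergy genes lower and 2 higher. These 2 rules differ by construction. Without a filter, 2 cytoskeletal targets and 3 RAS-ERK genes were lower and 0 RAS-ERK genes higher. With at least 10 counts in every library, 2 RAS-ERK genes were higher and 1 anergy gene lower. DESeq2 gave 2 RAS-ERK genes lower and 0 higher. Leaving out 1 library at a time, 1 to 3 RAS-ERK genes were lower and 0 to 2 higher, and 4 to 5 of the 10 genes were lower and 2 higher. For these last settings the cause was not tested.

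NR4A3, near 0 throughout except in the mitochondrial scaling, reversed to 0.0019 with RLE size factors and 0.035 with at least 10 counts in every library, and ranged from -0.11 to 0.065 with each library left out. The ratio of EGR2 to EGR3 reversed to -0.037 with a prior count of 2 and ranged from -0.21 to 0.26 with each library left out. The other 8 ratios kept their direction in every alternative. Of 130 log2 fold changes of the 10 genes, 116 kept their direction and their side of an adjusted p of 0.05.

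Libraries sharing a replicate number did not deviate together. Their departures from the respective group mean had correlations of -0.0081, 0.106 and -0.081 for numbers 1, 2 and 3, so the numbers were not taken as pairs. In a fit with a replicate block, 5 of the 10 genes were lower and 2 higher, as without it, and 4162 of all genes were lower and 3926 higher.

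Among the 10 genes, depth limits EGR3 most, with 14 to 25 counts per AZD4573 library. Of the related genes, RGS2, GEM and FASLG had fewer counts than that with AZD4573, so the size of their falls is uncertain.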
